A study of Mus musculus with 16 samples.

Results

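The early WDR5 rescue, in which human WDR5 was induced from T12h in a Wdr5 knockout clone, was compared with wild type in mouse embryoid bodies at day 6 of differentiation. The comparison takes 8 of the 16 samples of the series, chosen by their group label: 4 samples of the T12h rescue and 4 of wild type (WT). Each group of the series holds 2 biological duplicates, each sequenced in 2 technical runs. All cells were Rx:GFP KI embryonic stem cells, a mouse line with a green fluorescent protein reporter at Rx (Rax), made to aggregate by the serum-free SFEBq method in GMEM medium with 5% KSR, with 2% matrigel from embryoid body day 1. The WT embryoid bodies had the WT genotype and are labelled untreated. The T12h rescue had the Wdr5 KO genotype (clone #3) with inducible hWDR5 and received Dox (doxycycline) at T12h. The KO group of the same clone received no Dox and the T48h rescue received it at T48h, and levels in both are given beside the comparison as a description. The rescue differs from WT in clone, in transgene and in doxycycline, which cannot be told apart here.

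WDR5 is a core subunit of the COMPASS (MLL and SET1) complexes, which methylate lysine 4 of histone H3 at promoters and enhancers, and it also occurs in other chromatin complexes. SFEBq culture leads embryonic stem cells to rostral neural tissue in which an eye field, marked by Rax, can form. In the embryonic forebrain Sonic hedgehog from the ventral midline favours ventral fates such as hypothalamus and optic stalk, while Wnt and BMP proteins from the dorsal midline and roof plate favour dorsal and caudal fates, and FGF and retinoic acid act on both axes.

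RNA was counted per gene locus. The count table holds 4 columns a group, whose names give no replicate. In each group the 2 columns that differed least were taken as technical repeats of 1 library, and the remaining 2 as those of the other. The mean chi-square for each degree of freedom, by which the pairs were chosen, was 1.62 to 1.85 within pairs against 9.55 to 17.4 between libraries. The technical columns were therefore summed, which left 2 libraries a group, called a and b, with 34730074 and 32476672 fragments in WT and 53298375 and 45208416 in the T12h rescue. Levels are in CPM, the counts of a gene relative to all counts of its library, scaled by edgeR's TMM factors. "Higher" and "lower" below mean higher or lower in the T12h rescue than in WT, and a gene passed the test where edgeR's quasi-likelihood adjusted p was under 0.05. Log2 differences are those of the T12h rescue minus WT, with the standard error (SE) of the fit. Nothing in the labels says that duplicates came from separate cultures, so the p-values measure the spread between these libraries only, which may be technical. On the first principal components over all 8 libraries the WT and T12h libraries lay close together, and the component that held 5.05% of the variance set the WT libraries (43.1 and 37.0) apart from the T12h libraries (-35.8 and -41.6).

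The targeted gene was present in both groups. Wdr5 (mm10, chr2:27515147-27536538) was at 186 and 187 CPM in WT a and b and at 329 and 337 CPM in T12h a and b. Both rescue libraries lay above both WT libraries, with a log2 difference of 0.84 (SE 0.075, adjusted p = 1.86e-05), while the mean was 30.4 CPM in KO and 287 CPM in the T48h rescue. Fragments of the human transgene may be counted at the mouse locus, and the share of each was not measured. Of 19 genes for subunits of the COMPASS and MLL complexes, 3 were higher and 1 lower, beside 7.9% and 6.11% of all genes tested, with a median log2 difference of -0.05 (none was lower without T12h a, WT a or WT b). The higher genes were Wdr5 itself, Setd1b and Ash2l. Setd1b (0.275, adjusted p = 0.0468) did not pass with upper-quartile scaling. Ash2l, a partner of WDR5, was at 187 and 183 CPM in WT against 271 and 291 CPM in the rescue (0.60, SE 0.069, adjusted p = 9.78e-05). Ash2l lies on chromosome 8, whose genes are described apart.

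Most genes did not pass the test. Of 16130 named loci tested, 2261 passed the test (14.0%), with 1275 higher (7.9%) and 986 lower (6.11%). Of all loci tested 535 (3.32%) passed and differed at least 2-fold, 131 higher (0.812%) and 404 lower (2.5%). The shares of 7.9% and 6.11% are those to set beside the counts of each gene list below. Outside chromosome 8, 816 of 15278 genes (5.34%) were higher and 974 (6.38%) lower, together 11.7%. Of the 495 genes there that differed at least 2-fold (3.24%) most were lower: 397 were lower (2.6%) and 98 higher (0.641%). The median level of the 816 higher genes was 48.3 CPM in WT and 66.6 CPM in the rescue, and that of the 974 lower genes was 23.9 and 12.2 CPM. The split depended on the scaling: with upper-quartile scaling 611 genes outside chromosome 8 were higher and 1181 lower. The higher genes then made up 34.1% of those past the test in place of 45.6%. In a fit without the genes of chromosome 8, 795 were higher and 828 lower, and the higher genes made up 49.0%. The count also rested on single libraries, since 1217 genes passed without T12h a, 1316 without T12h b, 1070 without WT a and 1515 without WT b.

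**Figure D1:**
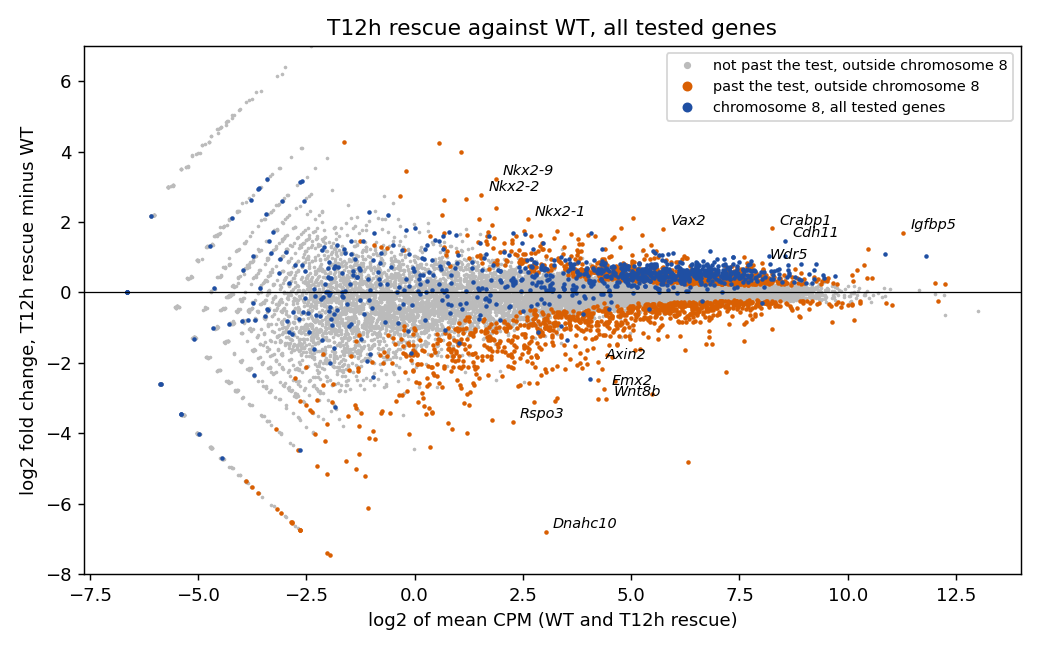
Each point is a named locus, with the log2 of its mean CPM over the T12h rescue and WT libraries on the horizontal axis and the log2 difference (T12h rescue minus WT) on the vertical axis. Orange points passed the test, blue points lie on chromosome 8 and grey points are the rest, and the blue points sit mostly above 0 while 397 orange points lie at or below -1.

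Several transcription factor genes of the ventral forebrain were higher in the early rescue. Of 22 tested genes of the list for ventral forebrain, hypothalamus and optic stalk (26 symbols), 9 were higher and 2 lower, beside 7.9% and 6.11% of all genes, and the median log2 difference was 0.73 beside -0.003 for all genes. With T12h a, T12h b, WT a and WT b left out in turn, 8, 7, 7 and 8 members were higher and 1 was lower each time. Because the samples are bulk RNA, fewer cells of a type and less RNA per cell cannot be told apart, here or in what follows.

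Vax2 (chr6:83692806-83738304), a homeobox gene of the ventral optic vesicle, was at 21.6 and 26.0 CPM in WT and at 85.8 and 81.1 CPM in the T12h rescue. The groups did not overlap, and both rescue libraries were several times higher. The log2 difference was 1.81 (SE 0.23, adjusted p = 0.000179), and the adjusted p was 0.0767 with DESeq2 and 0.0518 with limma on log2(FPKM + 0.1), with a range of 5.9e-31 to 0.0767 over 16 alternatives. Nkx2-9 (chr12:56611264-56613295), a homeobox gene of the ventral neural tube, was at 0.610 and 0.801 CPM in WT and at 5.70 and 7.51 CPM in the rescue. It rested on 22 and 27 counts in the WT libraries, which were both low, and the log2 difference was 3.22 (SE 0.32, adjusted p = 4.43e-05). The 2 genes stood differently to the knockout: in KO the mean of Vax2 was 0.77 CPM, below every library of the comparison, and that of Nkx2-9 was 25.3 CPM, above every one.

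Further ventral genes were higher. Nkx2-2, which acts downstream of Hedgehog in the ventral neural tube, was at 0.638 and 0.831 CPM in WT and 4.94 and 5.13 CPM in the rescue (2.77, SE 0.38, adjusted p = 0.000381). Nkx2-1, the hypothalamic homeobox gene, was at 2.05 and 2.64 CPM in WT and 9.88 and 9.89 CPM in the rescue (2.07, SE 0.36, adjusted p = 0.00173). Foxd1, a forkhead gene of the ventrotemporal retina and hypothalamus, was at 18.6 and 18.5 CPM in WT and 56.2 and 59.4 CPM in the rescue (1.64, SE 0.14, adjusted p = 1.39e-05). In each of these 3 genes the duplicates lay close together and the groups far apart. Six6, of eye field and hypothalamus, went from 199 and 210 CPM to 310 and 335 CPM (adjusted p = 0.000485), and Pax2, of the optic stalk, from 132 and 136 CPM to 204 and 191 CPM (adjusted p = 0.00461), smaller differences of 0.66 and 0.55 on the log2 scale. The call for Pax2 was lost without T12h a and without WT a. Foxa2, of the floor plate, was higher (0.83, adjusted p = 0.00361) but not without T12h b, and Nkx6-1 (1.60, adjusted p = 0.0228) did not pass with any library left out. Vax1, the paralogue of Vax2, was at 44.9 and 48.7 CPM in WT and 65.3 and 64.3 CPM in the rescue and did not pass (adjusted p = 0.0713). Shh, the ligand itself, was low and uneven, at 0.222 and 0.445 CPM in WT and 0.407 and 2.07 CPM in the rescue (adjusted p = 0.28).

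The summed level of the ventral list was 552 and 574 CPM in WT and 841 and 866 CPM in the rescue. Of the 11 members that passed, the KO mean lay below both groups in 8 and above both in 2.

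**Figure D2:**
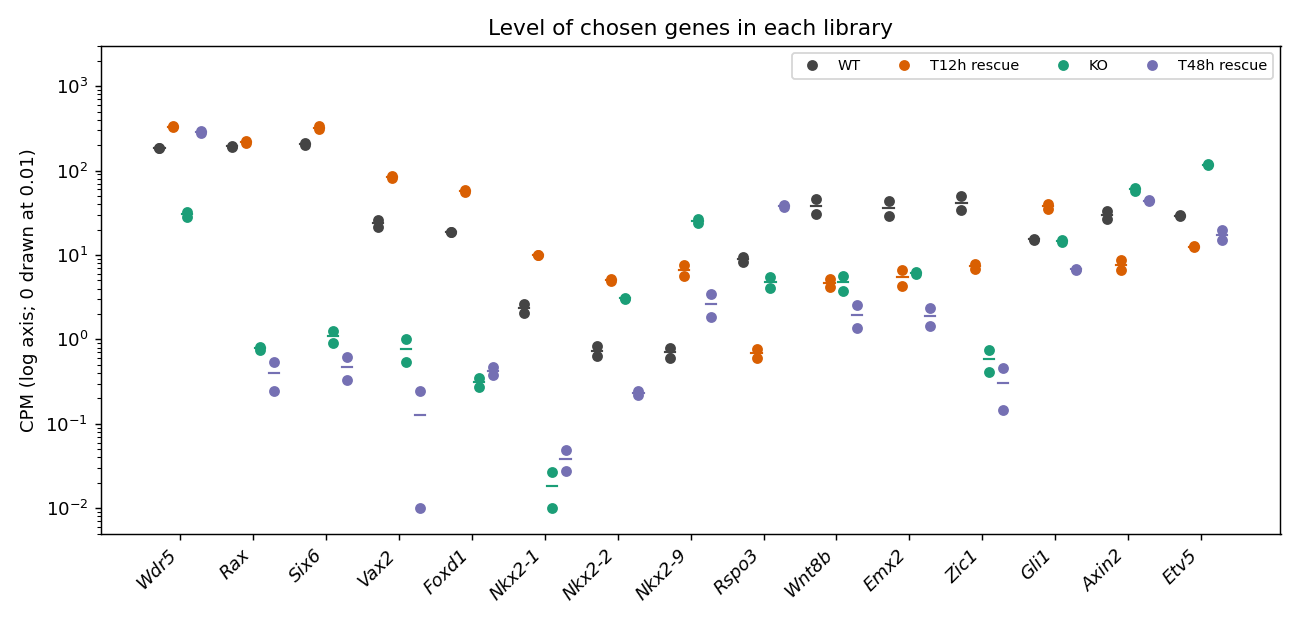
CPM on a log axis for 15 genes in the 4 groups, with a point for each of the 2 libraries and a dash for their mean, and a level of 0 drawn at 0.01. Vax2, Foxd1, Nkx2-1, Nkx2-2, Nkx2-9 and Gli1 lie higher in the T12h rescue than in WT, while Rspo3, Wnt8b, Emx2, Zic1, Axin2 and Etv5 lie lower, and Rax is nearly level.

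Most genes of the dorsal midline, the caudal forebrain and the roof plate were lower in the early rescue. Of 32 genes tested, 19 were lower and 1 higher, with a median log2 difference of -1.55 and a summed level of 489 and 417 CPM in WT against 252 and 264 CPM in the rescue. The sum was higher in WT a than in WT b, and the count moved with the library left out: 9 genes were lower without T12h a, 12 without T12h b, 6 without WT a and 13 without WT b.

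Rspo3 (chr10:29453107-29535867), a secreted R-spondin that strengthens Wnt signalling, was at 9.46 and 8.31 CPM in WT and at 0.777 and 0.595 CPM in the rescue, with no overlap. The log2 difference was -3.68 (SE 0.24, adjusted p = 1.7e-06), and the mean was 4.799 CPM in KO and 37.8 CPM in the T48h rescue. Wnt8b (chr19:44493472-44545848), a Wnt ligand of the dorsomedial forebrain, was at 45.8 and 31.0 CPM in WT and at 5.20 and 4.14 CPM in the rescue. WT a stood above WT b, and both stood far above the rescue libraries (-3.04, SE 0.29, adjusted p = 3.37e-05). The mean of Wnt8b in KO was 4.73 CPM, close to that of the T12h rescue.

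Emx2, a homeobox gene of the dorsal telencephalon, was at 43.3 and 29.1 CPM in WT and 4.33 and 6.57 CPM in the rescue (-2.74, adjusted p = 3.65e-05). Zic1, a zinc finger gene of the dorsal neural tube, was at 49.7 and 34.0 CPM in WT and 7.79 and 6.85 CPM in the rescue (-2.51, adjusted p = 7.65e-05). Both show the same spread within WT as Wnt8b, with WT a the higher library. Wnt7b (-1.45, adjusted p = 9.18e-05), Wnt1 (-1.82, adjusted p = 0.00541), Pax3 (-2.14, adjusted p = 0.00394), Rspo1 (-2.73, adjusted p = 0.00705) and Msx1 (-1.24, adjusted p = 0.00279) were lower too. Without WT a the calls for Wnt1, Pax3 and Rspo1 were lost, without T12h a those for Wnt1 and Rspo1, and without T12h b that for Rspo1. Rspo2 (-2.65, adjusted p = 0.0258) and Wnt3a (-3.09, adjusted p = 0.0178) passed, but not with any library left out. Msx2, a homeobox target of BMP, was the single member that was higher, at 4.69 and 3.83 CPM in WT and 9.11 and 12.3 CPM in the rescue (1.32, adjusted p = 0.000145).

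Midbrain and hindbrain genes were lower in part. Of 19 tested, 5 were lower (3 without WT a), with a median of -1.41 and a summed level of 68.5 and 53.7 CPM in WT against 25.6 and 24.9 CPM in the rescue. En1 and En2, the engrailed genes of the midbrain and hindbrain border, were lower by log2 differences of -3.14 (adjusted p = 0.00132) and -3.19 (adjusted p = 0.000186). Among Hox genes, which mark the hindbrain and spinal cord, 1 of 27 tested passed, Hoxc13, which was lower and under 1 CPM in both groups.

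Eye field genes differed little in sum, at 3408 and 3327 CPM in WT and 3540 and 3694 CPM in the rescue. Rax, the gene of the reporter locus and a defining factor of the eye field, was at 193 and 197 CPM in WT and 223 and 215 CPM in the rescue, a log2 difference of 0.17 that did not pass (adjusted p = 0.25). Six3 (0.34, adjusted p = 0.0542), Lhx2 (0.32, adjusted p = 0.131) and Pax6 (-0.25, adjusted p = 0.144) did not pass either, and the lowest value of the 3 in any library was 260.5 CPM, for Pax6. The defining genes of the eye field were thus present in every library of both groups. Of 20 eye field and early retina genes, 3 were higher and 4 lower, and with T12h a, T12h b, WT a and WT b left out in turn 2, 1, 2 and 1 were higher and 3, 2, 3 and 3 lower.

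Otx2, a homeobox gene of forebrain, midbrain and retinal pigment epithelium, was at 266 and 239 CPM in WT and 138 and 134 CPM in the rescue (-0.90, adjusted p = 1.73e-05). Its groups were well apart. Nr2e1, an orphan receptor of forebrain and retina progenitors, was higher instead, at 80.5 and 72.9 CPM in WT and 105 and 110.4 CPM in the rescue (0.49, adjusted p = 0.00481), a call lost without T12h b and without WT b.

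Genes of the pigment epithelium were lower in part. Of 10 tested, 4 were lower and 1 higher (2 were lower without WT a), with a median of -0.88 (-0.77 with genes at 0 in a group set to the limit that 3 counts allow). Mitf, the master regulator of pigment cells, was at 59.8 and 57.7 CPM in WT and 34.9 and 38.7 CPM in the rescue (-0.68, adjusted p = 0.00564), a call lost without T12h a and without WT a. Otx1 was at 26.9 and 20.9 CPM in WT and 5.74 and 7.58 CPM in the rescue (-1.85, adjusted p = 0.0004). Ttr, the transthyretin gene, was the member that was higher, at 14.3 and 16.0 CPM in WT and 25.8 and 35.8 CPM in the rescue (1.02, adjusted p = 0.000794), and it is also expressed by choroid plexus and endoderm. The pigment gene Mlana was at 0 in both rescue libraries, and the summed level of the list was 992 and 903 CPM in WT and 753 and 820 CPM in the rescue.

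The list for the dorsal and ventral axis of the optic vesicle held 17 tested genes, of which 6 were higher and 4 lower, and none was lower with any library left out. Beside Vax2 and Foxd1, the higher genes include Ephb2, an Eph receptor of the ventral retina. It was at 194 and 188 CPM in WT and 279.8 and 277 CPM in the rescue (0.55, adjusted p = 0.000298). Tbx2, a dorsal member of the list named after its values were seen, was higher too (1.09, adjusted p = 0.0144). Its call was lost in 5 of 16 alternatives, DESeq2 among them. Efnb2, an ephrin of the dorsal retina, is counted in a locus joined with Arglu1 on chromosome 8, which was at 566 and 578 CPM in WT and 837 and 766 CPM in the rescue (0.49, adjusted p = 0.000897). That difference is equal to the median of the genes of chromosome 8.

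Gli1, Ptch1 and Hhip, which Hedgehog signalling induces, were higher. Gli1, the transcription factor whose RNA is a common readout of Hedgehog signalling, was at 15.2 and 15.5 CPM in WT and 40.7 and 34.9 CPM in the rescue (1.30, SE 0.14, adjusted p = 7.66e-05), while the KO mean was 14.6 CPM. Ptch1, the receptor that is itself a target, was at 108 and 106 CPM in WT and 152 CPM in both rescue libraries (0.50, adjusted p = 0.00174). The libraries of each group nearly coincided for both genes in WT, and none of the rescue libraries overlapped with them. Hhip, a Hedgehog-binding inhibitor and target on chromosome 8, was at 3.97 and 3.92 CPM in WT and 9.16 and 9.39 CPM in the rescue (1.23, adjusted p = 0.00625), a call lost with any library left out.

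Ligands, co-receptors and repressors of the pathway differed in both directions. The summed level of the pathway list was nearly equal, at 1320 and 1300 CPM in WT and 1368 and 1301 CPM in the rescue. Over all genes tested, 7.9% were higher and 6.11% lower. Ihh, the Indian hedgehog ligand, was at 13.9 and 14.7 CPM in WT and 26.8 and 28.1 CPM in the rescue (0.94, adjusted p = 0.00037). Gli3, whose product acts mainly as a repressor in the forebrain, was lower at 300.4 and 291 CPM in WT and 215 and 218 CPM in the rescue (-0.45, adjusted p = 0.000973). The co-receptor genes Gas1 (-0.38, adjusted p = 0.00368) and Cdon (-0.37, adjusted p = 0.00885) were lower, whereas the co-receptor Boc (0.65, adjusted p = 0.0303) and the transducer Smo (0.29, adjusted p = 0.0196) were higher. Boc did not pass with any library left out, Smo did not pass without T12h a, WT a or WT b, and Cdon did not pass without T12h b or WT a. Of 17 pathway genes tested, 6 were higher and 3 lower, with a median of 0.44; with T12h a, T12h b, WT a and WT b left out in turn 3, 4, 3 and 3 were higher and 3, 2, 2 and 3 lower.

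**Figure D3:**
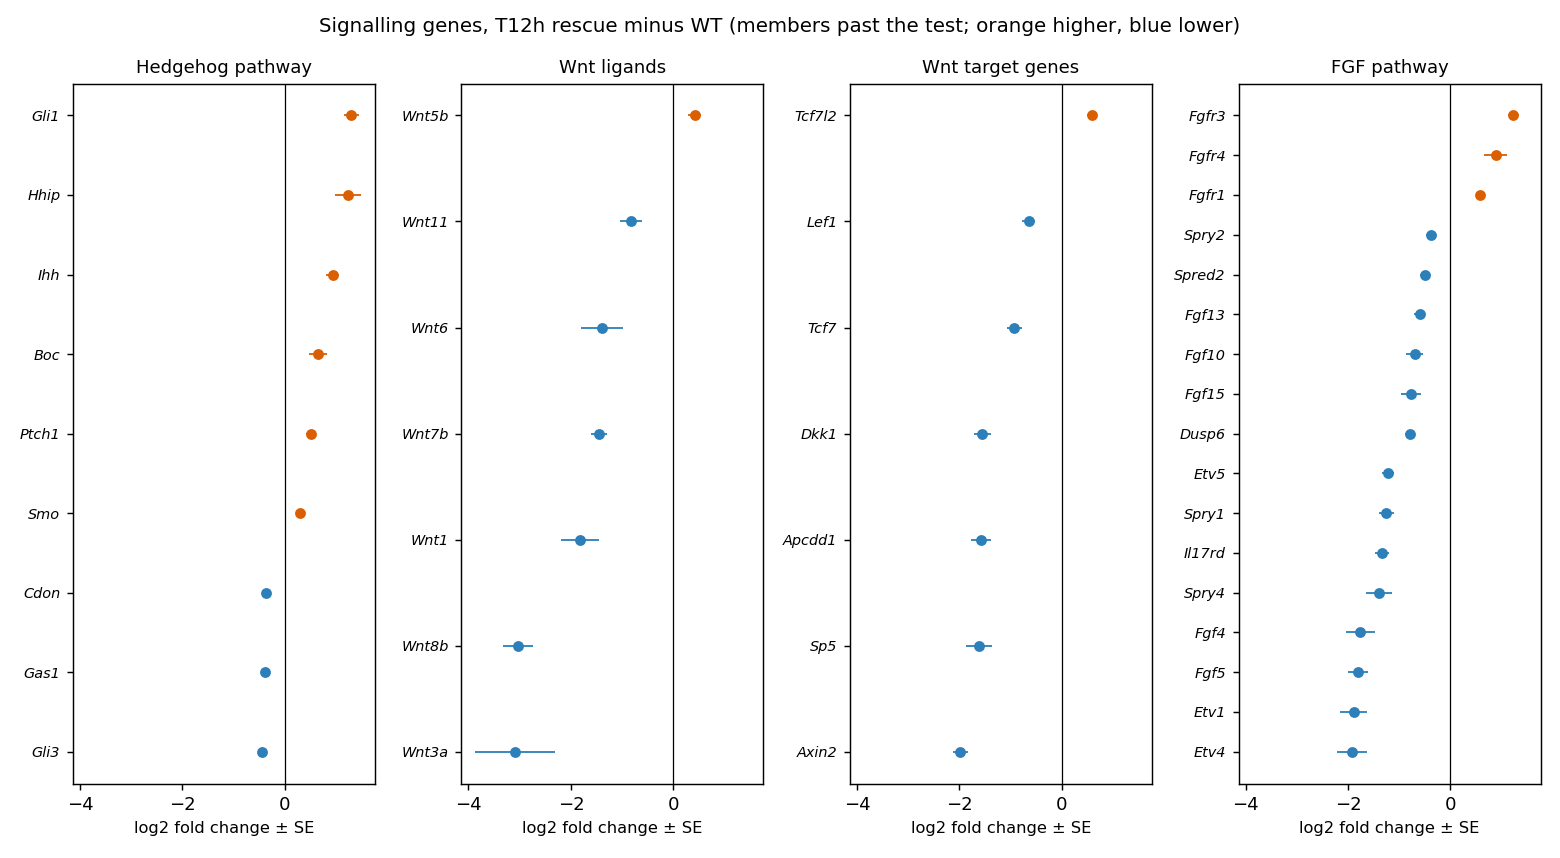
Log2 differences (T12h rescue minus WT) with their standard errors for the members of the Hedgehog, Wnt ligand, Wnt target and FGF lists that passed the test, orange where higher and blue where lower. Gli1 and Ptch1 lie to the right of 0, while most Wnt target and FGF pathway genes lie to the left.

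Wnt target genes were lower in part. Of 13 tested, 6 were lower and 1 higher, with a median of -0.70, and 5 to 6 were lower with each library left out. Axin2 (chr11:108920349-108950781), the feedback inhibitor that is the most used readout of Wnt signalling through beta-catenin, was at 33.6 and 26.8 CPM in WT and 6.59 and 8.77 CPM in the rescue. Both rescue libraries lay far below both WT libraries (-1.98, SE 0.15, adjusted p = 6.74e-06), and the KO mean was 60.3 CPM. Dkk1, a secreted Wnt inhibitor and target, was at 11.4 and 10.4 CPM in WT and 3.28 and 4.16 CPM in the rescue (-1.56, adjusted p = 7.65e-05). Apcdd1, a membrane inhibitor, was at 31.8 and 19.8 CPM in WT and 7.90 and 9.43 CPM in the rescue (-1.58, adjusted p = 0.000178). Sp5, a direct target gene that encodes a zinc finger factor, had a mean of 3.33 CPM in WT and 1.09 CPM in the rescue (-1.61, adjusted p = 0.000944). The TCF genes went apart: Tcf7 (-0.93, adjusted p = 0.000779) and Lef1 (-0.65, adjusted p = 0.00323; not past without WT a) were lower, and Tcf7l2, a marker of thalamus among other places, had a mean of 69.1 CPM in WT and 104 CPM in the rescue (0.59, adjusted p = 0.00103). Of the 7 members that passed, the KO mean lay above both groups in 5 and below both in 1.

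Among Wnt ligands, 6 of 18 were lower and 1 higher, with a median of -0.90 (-0.85 with genes at 0 in a group set to their limit). The 6 lower ligands fell to 2, 4, 2 and 4 with T12h a, T12h b, WT a and WT b left out in turn, and the higher one, Wnt5b (0.42, adjusted p = 0.0412), was lost each time. Receptors and modulators were mixed, with 9 of 30 higher and 7 lower, and 4, 5, 4 and 6 higher and 3, 3, 4 and 5 lower with the same libraries left out. Sfrp5, a secreted Wnt antagonist, was at 3.85 and 5.08 CPM in WT and 13.1 and 17.1 CPM in the rescue (1.76, adjusted p = 7.65e-05). Sfrp1, a related antagonist on chromosome 8, was at 447 and 451 CPM in WT and 773 and 806 CPM in the rescue (0.81, adjusted p = 4.82e-05). The receptor gene Fzd4 was at 56.4 and 54.5 CPM in WT and 18.1 and 18.5 CPM in the rescue (-1.60, adjusted p = 8.86e-06), while Fzd1 (0.51, adjusted p = 0.000687) and Wls, which carries Wnt proteins to the cell surface (0.62, adjusted p = 0.000161), were higher.

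To show the region before a Wnt target gene that was lower, the RefSeq promoters (GRCm38.p6, 250 bases before the start) were searched on both strands for CTTTGAT, the core letters bound by TCF and LEF factors. The letters occur in 1 of 8 Wnt target genes with a promoter in the table (12.5%), Sp5, and in 1005 of 27025 promoters of all genes (3.72%). A match does not show binding, and whether matches go with lower levels was not tested. The Sp5 promoter (chr2:70474673-70474922, plus strand) follows with the match in capitals, 104 bases before the start.
Sp5: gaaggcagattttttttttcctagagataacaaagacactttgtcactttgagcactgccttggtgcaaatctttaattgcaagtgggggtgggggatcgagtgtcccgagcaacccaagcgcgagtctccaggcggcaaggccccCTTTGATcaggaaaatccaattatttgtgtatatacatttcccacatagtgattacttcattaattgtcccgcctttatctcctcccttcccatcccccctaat

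Most FGF pathway genes were lower. Of 24 tested, 14 were lower and 3 higher, with a median of -0.72, and 11 to 12 were lower with each library left out. The ligand genes Fgf5, at 2.63 and 3.09 CPM in WT and 0.796 and 0.837 CPM in the rescue (-1.81, adjusted p = 8.34e-05), and Fgf4 (-1.76, adjusted p = 0.000999) were lower, and Fgf8 (-0.71, adjusted p = 0.187) did not pass. Fgf4 and Fgf5 are also expressed in the early epiblast. The 3 higher members are receptor genes: Fgfr3, expressed in neural progenitors, was at 12.8 and 12.5 CPM in WT and 30.9 and 28.4 CPM in the rescue (1.23, adjusted p = 1.11e-05), and Fgfr1, on chromosome 8, had a mean of 214 CPM in WT and 319 CPM in the rescue (0.57, adjusted p = 0.00011), near the median of that chromosome. Fgfr4 was the third (0.88, adjusted p = 0.0186), and its call was lost with any library left out. Several feedback and target genes were lower. Etv5, an ETS factor induced by FGF, was at 29.2 and 29.5 CPM in WT and 12.6 CPM in both rescue libraries (-1.22, adjusted p = 4.43e-05), with a KO mean of 118 CPM. Il17rd, an inhibitor at the receptor, was at 71.5 and 69.9 CPM in WT and 27.8 and 28.2 CPM in the rescue (-1.33, adjusted p = 6.69e-05). Spry1, a feedback inhibitor, was at 34.5 and 29.9 CPM in WT and 14.2 and 12.9 CPM in the rescue (-1.25, adjusted p = 0.000154). The groups stood apart with little spread between duplicates in these target genes. Spry4 (-1.39), Etv4 (-1.92), Etv1 (-1.89) and the phosphatase gene Dusp6 (-0.79) passed in the same direction. Of the 17 members that passed, the KO mean lay above both groups in 11 and below both in 5.

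Retinoic acid genes were fewer and divided. Crabp1, a cytosolic retinoic acid binding protein, was at 128 and 139.6 CPM in WT and 449 and 498 CPM in the rescue (1.82, SE 0.11, adjusted p = 1.32e-06). Rbp4, a retinol carrier, was at 23.8 and 26.1 CPM in WT and 53.6 and 72.2 CPM in the rescue (1.33, adjusted p = 8e-05). Aldh1a3, the retinoic acid synthesis gene of the ventral retina, was higher by 0.30 (adjusted p = 0.0278), and Aldh1a2 (-1.70, adjusted p = 0.0424) and the degrading enzyme gene Cyp26a1 (-0.31, adjusted p = 0.0484) were lower; these 3 calls were lost with any library left out. Of 18 genes 4 were higher and 2 lower, with a median of -0.006.

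BMP and Notch genes passed in both directions, beside 7.9% higher and 6.11% lower over all genes tested. In the BMP pathway 4 of 24 were higher and 3 lower, with a median of -0.10, and 3, 2, 3 and 2 were higher and 2, 2, 2 and 3 lower with T12h a, T12h b, WT a and WT b left out in turn. Id2, a target of BMP, was at 229 and 207 CPM in WT and 278 and 329.8 CPM in the rescue (0.48, adjusted p = 0.00284), Bmp2 was higher (0.98, adjusted p = 0.00835), and Bmp5 (-1.27, adjusted p = 0.00227) and Bmp7 (-0.55, adjusted p = 0.0161) were lower. Bmp2 did not pass without T12h b or WT b, and Bmp7 did not pass without T12h a, T12h b or WT a. Bmp4, which patterns the dorsal optic vesicle, did not pass (-0.26, adjusted p = 0.113). In the Notch pathway 2 of 18 were higher and 4 lower, and 0, 1, 0 and 1 were higher and 3, 2, 2 and 2 lower with T12h a, T12h b, WT a and WT b left out in turn. The ligand gene Jag1 was at 44.4 and 43.9 CPM in WT and 21.2 CPM in both rescue libraries (-1.06, adjusted p = 0.000114), and the target gene Hey2 was lower by a log2 difference of -1.65 (adjusted p = 0.000197).

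Most pluripotency genes were lower in the rescue. Of 20 tested, 17 were lower, with a median of -1.67, and 15 to 16 were lower with each library left out. Nanog, a factor of the naive and early epiblast state, was at 23.3 and 27.3 CPM in WT and 5.50 and 6.98 CPM in the rescue (-2.02, adjusted p = 6.01e-06), while the KO mean was 91.0 CPM. Esrrb, an orphan receptor of the same network, was at 24.5 and 22.9 CPM in WT and 4.76 and 5.97 CPM in the rescue (-2.15, adjusted p = 5.56e-06). Dnmt3l, a cofactor of DNA methylation, was at 52.1 and 50.2 CPM in WT and 17.4 and 15.4 CPM in the rescue (-1.64, adjusted p = 3.72e-06). Every library of the rescue lay below every WT library for these 3 genes. Pou5f1 (Oct4), named after its values were seen, had a mean of 21.7 CPM in WT, 6.67 CPM in the rescue and 231 CPM in KO (-1.71, adjusted p = 4.38e-05). Klf4, Dppa3 and Lin28a were the members that did not pass. Zfp42 (Rex1) is on chromosome 8 and was lower against the direction of that chromosome, at 16.7 and 16.1 CPM in WT and 6.61 and 6.39 CPM in the rescue (-1.34, adjusted p = 5.24e-05). The summed level of the list was 1347 and 1312 CPM in WT and 1001 and 984 CPM in the rescue, and the part of these markers in the other results was not tested.

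Most genes of glycolysis and the hypoxia response were lower. Of 28 tested, 20 were lower and 1 higher, with a median of -0.49, and the summed level was 11074 and 11215 CPM in WT and 8355 and 7933 CPM in the rescue. Between 17 and 19 were lower with each library left out, and 15 with limma on log2(FPKM + 1). Slc2a1, the glucose transporter GLUT1, was at 961 and 1079 CPM in WT and 592 and 546 CPM in the rescue (-0.84, adjusted p = 1.73e-05). Pfkp, a phosphofructokinase, was at 165 and 147 CPM in WT and 63.6 and 50.7 CPM in the rescue (-1.45, adjusted p = 3.69e-05). Ndrg1, a stress gene induced in hypoxia, was at 41.2 and 48.1 CPM in WT and 17.2 and 18.8 CPM in the rescue (-1.31, adjusted p = 5.56e-06). None of the 3 genes had overlapping groups. Ero1l, an oxidase of the endoplasmic reticulum, was lower by a log2 difference of -0.83 (adjusted p = 6.07e-05). Bnip3, a mitophagy gene, had a mean of 92.1 CPM in WT and 51.3 CPM in the rescue (-0.85, adjusted p = 0.000171), and Egln3, an oxygen-sensing hydroxylase, had 38.6 and 21.0 CPM (-0.88, adjusted p = 0.00575); both were named after their values were seen. The exception was Eno1, which shares sequence with processed pseudogenes, so its count is uncertain. Whether such copies also affect the counts of the lower genes or the sum was not tested.

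The promoters of this list were searched for ACGTG, the core of the hypoxia response element bound by HIF factors, on both strands of the 250 bases before the start. The letters occur in 15 of 25 genes with a promoter in the table (60.0%) and in 4998 of 27025 promoters of all genes (18.5%). A match does not show binding. Because the list names genes of the hypoxia response, its promoters may hold these letters more often whatever the groups do. Whether matches go with lower levels was not tested. Slc2a1 (chr4:119108495-119108744, plus strand) holds it 36 bases before the start, Egln3 (chr12:54203875-54204124, minus strand) 229 bases before it, and Bnip3 (chr7:138909507-138909756, minus strand) on both strands 107 and 108 bases before it. These RefSeq sequences (GRCm38.p6) are given on the strand of the gene because their genes were lower in the rescue, with the match in capitals; in Bnip3 the capitals are the palindrome that holds ACGTG on either strand.
Slc2a1: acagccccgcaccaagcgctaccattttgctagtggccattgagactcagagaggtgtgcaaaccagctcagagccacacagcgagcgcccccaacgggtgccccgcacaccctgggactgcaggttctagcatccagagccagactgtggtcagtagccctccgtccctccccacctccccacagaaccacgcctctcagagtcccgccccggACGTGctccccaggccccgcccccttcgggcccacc
Egln3: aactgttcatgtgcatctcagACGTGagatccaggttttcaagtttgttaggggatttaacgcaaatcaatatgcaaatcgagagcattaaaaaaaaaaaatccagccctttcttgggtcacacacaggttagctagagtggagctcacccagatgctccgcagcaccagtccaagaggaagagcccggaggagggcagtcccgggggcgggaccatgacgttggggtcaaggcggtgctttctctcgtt
Bnip3: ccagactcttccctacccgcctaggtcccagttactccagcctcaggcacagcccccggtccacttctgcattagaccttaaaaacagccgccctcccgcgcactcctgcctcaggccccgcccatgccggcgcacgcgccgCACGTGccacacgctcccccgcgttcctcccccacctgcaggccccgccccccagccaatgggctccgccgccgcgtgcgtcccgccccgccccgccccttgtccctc

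Other metabolic and stress lists were lower in part. Of 24 cholesterol synthesis genes 11 were lower and 1 higher, with a median of -0.25, and 5, 7, 7 and 6 were lower without T12h a, T12h b, WT a and WT b. The synthesis genes Hmgcs1 (-0.44) and Lss (-0.44) were among the lower ones. Of 23 genes of the integrated stress response 9 were lower and 2 higher, and 5, 6, 5 and 6 were lower with the same libraries left out. Stc2 (-1.49), Asns, the asparagine synthetase gene (-0.83), and Vldlr (-0.72) were lower, whereas Slc7a11, the cystine transporter gene, was higher at 8.15 and 9.65 CPM in WT and 21.6 and 32.3 CPM in the rescue (1.60, adjusted p = 0.000156). Cell cycle genes (2 of 25 higher, 1 lower, median 0.04) and p53 targets (2 of 25 higher, 2 lower, median -0.01) had shares near those of all genes. With T12h a, T12h b, WT a and WT b left out in turn, 1, 1, 1 and 2 cell cycle genes and 1, 0, 0 and 0 p53 targets were higher, and 1 p53 target was lower without WT b.

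**Figure D4:**
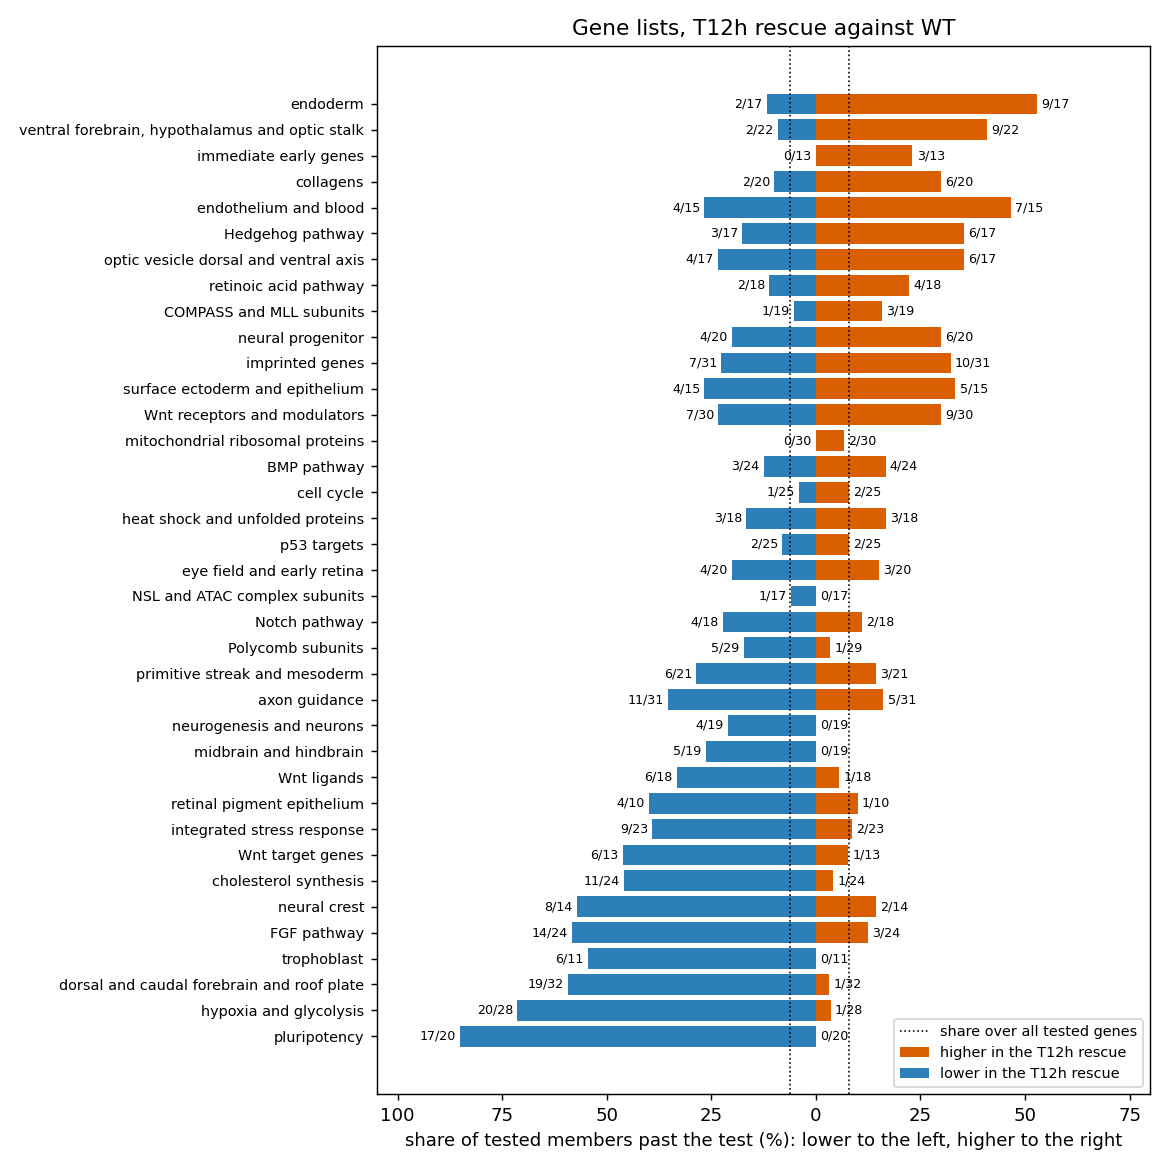
Share of the tested members of 37 gene lists that were higher (bars to the right) or lower (bars to the left) in the T12h rescue, in percent, with dotted lines at the shares over all genes, 7.9% and 6.11%. Pluripotency, hypoxia and glycolysis, dorsal and caudal forebrain and FGF pathway genes have the longest bars to the left.

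Neural lists were mixed. Of 20 neural progenitor genes 6 were higher and 4 lower (2 higher without WT a, 3 without T12h a, and 2 lower with any library left out), with summed levels of 2853 and 2844 CPM in WT and 3209 and 3229 CPM in the rescue. Sox3, a progenitor factor, was at 122 and 141 CPM in WT and 203 and 200.4 CPM in the rescue (0.62, adjusted p = 0.00119). Sox1, an early neural factor on chromosome 8, was at 85.2 and 86.2 CPM in WT and 143 and 149.8 CPM in the rescue (0.77). Fabp7, a radial glia gene, was lower by a log2 difference of -3.44 (adjusted p = 0.00136). Neuronal genes were low in both groups: of 19 tested 4 were lower, Nefl (-0.93), Stmn2 (-1.05), Nefm (-1.01) and Gap43 (-0.80), and the summed level was 137 and 136 CPM in WT and 108 and 111 CPM in the rescue. Of 14 neural crest genes 8 were lower and 2 higher, and 5 were lower without WT a. Sox10, a crest factor, was at 4.58 and 3.86 CPM in WT and 1.18 and 1.17 CPM in the rescue (-1.84, adjusted p = 0.00149), while Tfap2a, a factor of crest and surface ectoderm, was at 7.18 and 5.46 CPM in WT and 15.2 and 15.9 CPM in the rescue (1.29, adjusted p = 0.000382).

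Markers of non-neural cell types also moved with the groups. The endoderm list had 9 of 17 genes higher and 2 lower, and its summed level was 3905 and 3790 CPM in WT and 6826 and 7228 CPM in the rescue; 10, 5, 8 and 6 were higher without T12h a, T12h b, WT a and WT b. Nearly all of the difference in that sum lay in the list's largest members by CPM, Col4a1 and Lama1. These encode basement membrane proteins that other cell types make too. Col4a1, a collagen of basement membranes on chromosome 8, was at 2427 and 2266 CPM in WT and 4725 and 4887 CPM in the rescue, and its KO mean was 9902 CPM. Lama1, a laminin chain, was at 949 and 998 CPM in WT and 1593 and 1735 CPM in the rescue (0.77, adjusted p = 0.000217). Gata4 (0.52), Sox17 (0.54) and Gata6 (0.42) were higher as well, and Afp, of visceral endoderm, had a mean of 42.6 CPM in WT and 22.4 CPM in the rescue and did not pass (adjusted p = 0.077). Of 15 genes of endothelium and blood 7 were higher and 4 lower, with sums of 105 and 103 CPM in WT and 165 and 145 CPM in the rescue, and 2, 6, 3 and 5 were higher with the same libraries left out. Tek, an endothelial receptor, was higher (1.17), and Pecam1, another endothelial gene, was lower at 5.13 and 5.31 CPM in WT and 1.41 and 1.92 CPM in the rescue (-1.66). Of 21 genes of primitive streak and mesoderm 3 were higher and 6 lower (3 lower without WT a), with sums of 211 and 206 CPM in WT and 219 and 255 CPM in the rescue, and Mixl1, Mesp1 and Meox1 were at 0 in both rescue libraries. Of 15 surface ectoderm genes 5 were higher and 4 lower (3, 1, 2 and 2 higher without T12h a, T12h b, WT a and WT b), with sums of 291 and 276 CPM in WT and 311 and 350 CPM in the rescue and with Krt14 at 0 in WT. Of 11 trophoblast genes 6 were lower (3, 6, 3 and 4 without the same libraries), with sums of 36.2 and 33.0 CPM in WT and 13.7 and 15.9 CPM in the rescue. The part of these cell types in the other results was not tested.

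Outside the lists, several single genes differed strongly. Igfbp5, which binds insulin-like growth factors, was at 1142 and 1207 CPM in WT and 3736 and 3860 CPM in the rescue (1.69, SE 0.065, adjusted p = 2.83e-08). Peg13, an imprinted noncoding RNA gene, was at 13.4 and 11.2 CPM in WT and 55.4 and 50.7 CPM in the rescue (2.103, adjusted p = 7.84e-07). Both had duplicates close together and groups far apart. The largest decrease among the genes named by rule was that of Dnahc10, an axonemal dynein gene, at 16.6 and 15.6 CPM in WT and 0.0740 and 0.220 CPM in the rescue (-6.79, adjusted p = 3.43e-06). It was also low in the other lines of the clone, at 1.46 and 1.65 CPM in KO and 0.19 and 0.05 CPM in the T48h rescue. Tnfrsf19, a receptor that is also a Wnt target, was at 35.1 and 31.5 CPM in WT and 3.29 and 5.02 CPM in the rescue (-3.02, adjusted p = 3.29e-07). Samd5 (-3.07) and the DMRT factor gene Dmrta1 (-3.00) followed. Rps28, Rpl36, Rps16 and Tuba3a also met the rule for large differences, but they share sequence with pseudogenes or near-identical copies and their counts are uncertain.

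Imprinted genes differed in both directions. Of 31 tested, 10 were higher and 7 lower, beside 7.9% and 6.11% of all genes, and 6 were higher without WT a. Peg10, a paternally expressed gene, was at 819.7 and 885 CPM in WT and 1921 and 2057 CPM in the rescue (1.22, adjusted p = 7.84e-07). Igf2, an insulin-like growth factor, was at 127 and 101 CPM in WT and 38.6 and 34.5 CPM in the rescue (-1.64, adjusted p = 5.56e-06), and the growth inhibitor Cdkn1c (-1.15, adjusted p = 2.96e-05) and Phlda2 (-1.99, adjusted p = 6.53e-05) were lower. Axon guidance genes were lower more than higher, 11 against 5 of 31 (7 lower without WT a). Nrp2, a semaphorin co-receptor, was at 37.2 and 37.9 CPM in WT and 11.8 and 15.0 CPM in the rescue (-1.49, adjusted p = 3.43e-06), Dcc, the netrin receptor, was at 19.3 and 17.0 CPM and 3.79 and 4.21 CPM (-2.18), and the ephrin gene Efnb3 was higher (0.71).

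Genes of chromosome 8 were shifted upward along its whole length. Of 852 tested, 459 were higher (53.9%) and 12 lower (1.41%), together 55.3%, and 729 had a log2 difference above 0. Their median was 0.486, a 1.4-fold difference, beside -0.017 outside chromosome 8, and the medians of the other 19 chromosomes lay between -0.058 and 0.024. The 555 genes at 10 CPM or more had a median of 0.517 with quartiles of 0.386 and 0.645. Along the chromosome the medians of 13 segments of 10 Mb ranged from 0.366 to 0.559, so no stretch stood at 0. The share of all counts that lay on chromosome 8 was 4.96% and 4.94% in WT, 7.14% and 7.12% in the T12h rescue, 8.19% and 8.26% in KO and 6.44% and 6.42% in the T48h rescue. This share weighs genes by their level. The median log2 difference from WT was 0.486 in the T12h rescue, 0.486 in KO and 0.392 in the T48h rescue. The shift was thus common to all libraries of the clone, and a gene of chromosome 8 named above or below is to be read against the median of 0.486.

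**Figure D5:**
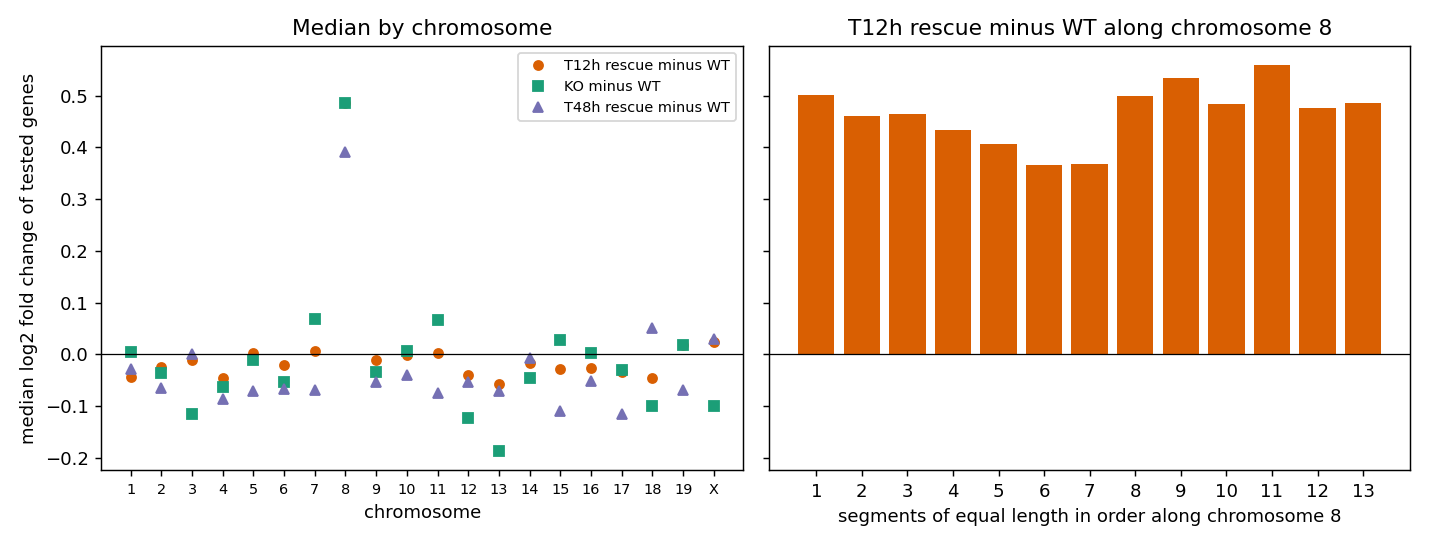
Median log2 difference from WT of the genes of each chromosome in the T12h rescue, KO and T48h rescue. For the T12h rescue, the medians of 13 segments of equal length are drawn in order along chromosome 8. Chromosome 8 stands apart in all 3 groups, at 0.486 in the T12h rescue, and the segments lie between 0.366 and 0.559.

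Of the genes of chromosome 8, 40 differed at least 2-fold from WT (4.69%), 33 higher (3.87%) and 7 lower (0.822%). Cdh11 (chr8:102632141-102785142), a cadherin of mesenchyme and neural tissue, was at 207 and 190.2 CPM in WT and 528 and 575 CPM in the rescue (1.47, adjusted p = 1.32e-06). Cdh5, the endothelial cadherin, was at 2.55 and 3.09 CPM in WT and 10.5 and 7.27 CPM in the rescue (1.67, adjusted p = 0.000156). Hsd11b2, which inactivates glucocorticoids, was at 3.77 and 4.78 CPM in WT and 10.6 and 12.1 CPM in the rescue (1.40, adjusted p = 0.000123). The groups were apart in all 3 genes. Among the 12 lower genes were Zfp42, described above, and Klf2, another factor of the pluripotency network, at 9.26 and 10.7 CPM in WT and 4.85 and 4.23 CPM in the rescue (-1.13, adjusted p = 0.000554). Kbtbd11 (-0.95, adjusted p = 0.0025) and Plcg2 (-0.60, adjusted p = 0.0115; not past without T12h a, WT a or WT b) were lower as well. Without each library in turn 5 to 8 genes of the chromosome were lower.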

How the data were processed

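Embryoid bodies at day 6 of 4 groups were sequenced as 2 duplicates with 2 technical runs each. The labels' protocols give RNeasy extraction and TruSeq libraries. The submitters' processing notes name TopHat2 2.1.1, SAMtools 1.5, Cufflinks 2.2.1, deepTools and the build mm10. Which annotation and strand setting served for counting is not given in the sources used, so overlapping and antisense genes cannot be separated.

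Fragments per locus were deposited as estimated counts, per the file headers. A second deposited table holds FPKM and served only for alternatives, with limma on log2 values after adding 1 or 0.1 to the FPKM, which makes fold changes of low genes too small. The authors' estimated counts carried 1 factor per column: a fragment was worth 0.63 to 1.29 units, and by column 90.9% to 92.0% of the values came out whole (tolerance 0.02 fragments). The factor was divided out, technical columns were summed (column names give the group but no replicate number) and sums were rounded to whole numbers. Of 28432 loci, 5143 without a name (3.16% to 6.12% of counts) and 7 named loci marked as too deep to be estimated were left out, which left 23282; 397 of these join several symbols. Depth was 32476672 to 65687435 fragments a library.

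edgeR 4.0.16 (R 4.3.3) gave the quasi-likelihood test in 1 fit of all 4 groups (4 residual degrees of freedom) with TMM factors, filterByExpr and Benjamini-Hochberg adjustment over 16130 loci, at an adjusted p under 0.05. DESeq2 1.42.0 and limma 3.58.1 were alternatives. The code was tested on simulated data. The 42 gene lists (836 symbols, 792 tested) and the markers were chosen with earlier results of these data known, and lists are described by counts and medians without a set test. Genes were named by rule: the markers; the 12 largest increases and decreases outside chromosome 8 and the 5 largest of each direction on it, past the test, with no overlap of groups and a mean of at least 5 CPM in the higher one; up to 4 members of each list by adjusted p; and any members of the marker and signalling lists. Other list members were named after their values were seen. Sequences are from RefSeq (GRCm38.p6). Some genes that met the rule are not reported here.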

Additional observations from a re-analysis of the deposited data

How the results depend on the processing

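The comparison was recomputed under 16 alternatives, and of the 161 genes named by rule that passed the test 117 passed in each of them, 44 were lost in at least 1 and none reversed. No paired analysis was possible because the column names carry no replicate number. The total of 2261 genes was 2302 with DESeq2's size factors, 2242 with upper-quartile scaling, 2660 with DESeq2, 2897 with no filter on low counts, 3015 with the T12h rescue and WT fitted alone and 1768 with limma on log2(FPKM + 1). Leaving out 1 library gave totals of 1070 to 1515, 317 to 412 at least 2-fold, 285 to 488 higher and 448 to 677 lower outside chromosome 8 (59 to 93 and 234 to 296 at least 2-fold), and 5 to 8 lower on chromosome 8. With limma on log2(FPKM + 1), 173 genes differed at least 2-fold, 37 higher and 123 lower outside chromosome 8. With limma on log2(FPKM + 0.1), 535 were higher outside chromosome 8. With limma on log2(FPKM + 1) and no filter, 1436 genes passed and 163 differed at least 2-fold; outside chromosome 8, 468 were higher and 608 lower (37 and 114 at least 2-fold), and 6 were lower on chromosome 8. With the first technical column alone, 7 were lower on chromosome 8. Cause was not tested for these shifts; leaving out a library leaves fewer samples, and the lone library is assumed to vary like the other groups. Depth limits genes at 0 in a group: 3 counts correspond to 0.043 CPM in WT and 0.0302 CPM in the T12h rescue, which covers counting error only.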
